A study of Homo sapiens with 24 samples.

Results

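MXD4, YPEL5 and TXNIP are 3 human genes that have been linked to growth arrest. They were followed here in 2 pancreatic ductal adenocarcinoma cell lines treated with PD-0332991. The members are every bead-array probe that carries 1 of these 3 symbols in any of the 6 lists of changed genes that the authors deposited, and each gene had 1 such probe, so there were 3 probes of the 47223 on the array. Of those, 24750 were detected often enough to be tested, 685 of them carry a gene name through the lists, and 3 of the 3 members were tested. All 3 were detected on 24 of the 24 arrays, with a detection p of 0 on each.

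COLO-357 cells were grown in DMEM and AsPC-1 cells in RPMI 1640, both with serum, and line and medium therefore cannot be told apart. PD-0332991 (palbociclib) blocks CDK4 and CDK6, the kinases that cyclin D activates to start the cell cycle, and it was given at 5 µM, with vehicle as the control. The 8 groups were COLO-357 with PD-0332991 or vehicle for 72 h, COLO-357 with PD-0332991 or vehicle for 24 h, AsPC-1 with PD-0332991 or vehicle for 72 h, and AsPC-1 with PD-0332991 or vehicle for 24 h. Each group had 3 arrays, which the submitters describe as biological triplicates, and nothing in the sources used here says how the cultures of 1 group were separated, so p-values measure the spread between these samples. Levels below are background-corrected, quantile-normalised log2 signals. RNA was taken from whole cultures, so fewer cells that hold a transcript and less transcript per cell cannot be told apart.

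MXD4 encodes a repressor of the MYC/MAX/MXD network. It pairs with MAX, the partner that MYC also needs, binds the E-box sequences that MYC binds, and represses transcription there, and it is known for expression in cells that stop dividing and differentiate. YPEL5 encodes a small protein of the Yippee family that associates with the CTLH ubiquitin ligase and localises to the mitotic apparatus. TXNIP encodes an alpha arrestin that binds thioredoxin, lowers glucose uptake by removing glucose transporters from the cell surface, and is transcribed in response to glucose through MondoA and its partner MLX at paired E-box-like elements. Low TXNIP is common in tumours, and raised TXNIP is known to slow growth.

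The promoters are printed because the 3 genes moved together in COLO-357 and because MXD4 binds, and MondoA acts on, E-box-like letters. The sequences are from RefSeq (GRCh38.p14), 250 bases before to 50 after the annotated start, and 3 of the 3 genes matched by symbol. Capitals mark letters that matched a searched motif. The 5 motifs were chosen with these promoters in view and were searched on both strands: the E-box CACGTG, a pair of E-box-like hexamers CACGNG with 5 bases between them, the forkhead letters GTAAACA, the CCAAT box CCAAT and the cell cycle homology letters TTTGAA. The E-box is itself a form of the hexamer in the pair, and no 2 matches shared bases in the windows printed.
MXD4, chr4:2262060-2262359, minus strand: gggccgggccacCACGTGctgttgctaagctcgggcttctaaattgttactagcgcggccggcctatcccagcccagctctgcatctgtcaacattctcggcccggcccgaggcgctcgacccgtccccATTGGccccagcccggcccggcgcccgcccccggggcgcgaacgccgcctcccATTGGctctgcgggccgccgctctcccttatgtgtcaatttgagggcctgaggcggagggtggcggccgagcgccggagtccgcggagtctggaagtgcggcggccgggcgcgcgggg
YPEL5, chr2:30146757-30147056, plus strand: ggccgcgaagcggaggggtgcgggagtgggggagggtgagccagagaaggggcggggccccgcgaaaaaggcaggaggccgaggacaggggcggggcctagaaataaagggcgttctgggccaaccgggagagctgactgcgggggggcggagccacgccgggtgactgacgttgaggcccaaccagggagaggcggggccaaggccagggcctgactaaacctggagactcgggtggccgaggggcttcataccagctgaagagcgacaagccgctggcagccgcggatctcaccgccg
TXNIP, chr1:145996530-145996829, minus strand: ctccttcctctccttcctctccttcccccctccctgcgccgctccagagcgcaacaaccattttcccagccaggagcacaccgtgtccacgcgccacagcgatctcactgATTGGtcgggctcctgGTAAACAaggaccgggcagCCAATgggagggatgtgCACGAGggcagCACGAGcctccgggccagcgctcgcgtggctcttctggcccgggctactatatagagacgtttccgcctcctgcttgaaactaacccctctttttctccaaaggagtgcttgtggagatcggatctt

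The MXD4 window held CACGTG with its first base 238 bases before the start, and CCAAT on the opposite strand 121 and 68 bases before it. In the TXNIP window the paired hexamers began 88 bases before the start, GTAAACA began 124 bases before it, and CCAAT stood 140 bases before it on the opposite strand and 105 bases before it on the coding strand. None of the 5 motifs matched in the YPEL5 window, which says only that these letters are not in these 300 bases. Of 35116 RefSeq windows of the same length, 7.26% held CACGTG, 3.42% held GTAAACA, 34.6% held CCAAT and 15.2% held TTTGAA. The paired hexamers were in 20 windows, or 0.057%. A second RefSeq window for TXNIP held TTTGAA 170 bases before its own start. These matches describe the letters, and no binding was measured.

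The members were chosen by the authors' lists, that is, by their treated-to-control ratios on these arrays, and those values are given as a description with no test. MXD4 was in 3 of the 6 lists, TXNIP in 2 and YPEL5 in 1, and none of the 3 genes was in either list of a cyclin knockdown. In the authors' deposited table for COLO-357 at 72 h, MXD4 had 1067.71 in PD-0332991 cultures and 310.12 in vehicle cultures, a deposited ratio of 3.45. In the authors' deposited table for COLO-357 at 24 h, the MXD4 ratio was 4, the first of the 34 probes listed as higher, and the YPEL5 ratio of 2.94 was the second. TXNIP had 2729.45 in PD-0332991 cultures and 850.96 in vehicle cultures in the authors' deposited table for COLO-357 at 72 h, a ratio of 3.23. Just inside the limit, the authors' deposited table gave TXNIP a ratio of 2.04 in COLO-357 at 24 h, where the smallest listed increase was 2. Just outside it, YPEL5 had a ratio of the authors' scaled intensities of 1.69 in COLO-357 at 72 h and 1.75 in AsPC-1 at 24 h. The lists thus hold 6 of the 12 pairs of a member and a drug comparison, and the tests below are on the other 6.

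**Figure D1:**
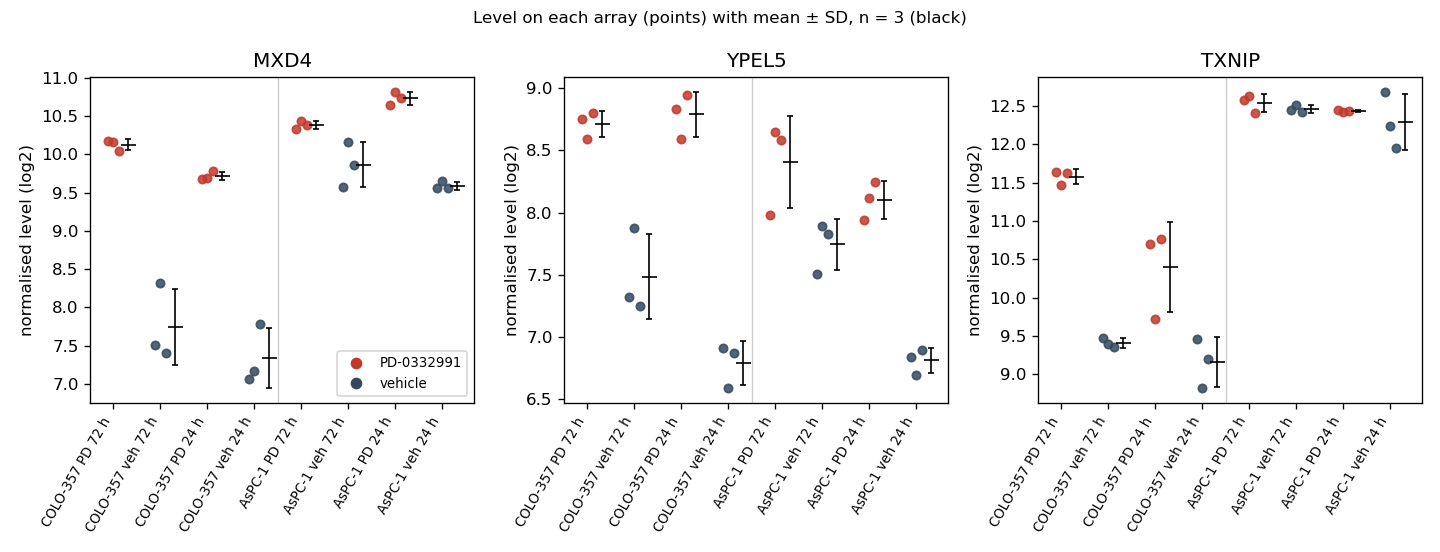
Normalised level (log2) of MXD4, YPEL5 and TXNIP on each of the 24 arrays, by cell line, treatment and time. Points are arrays (red PD-0332991, blue vehicle) and black bars are the mean ± SD of 3 arrays. The PD-0332991 arrays stand above the vehicle arrays of the same line and time for MXD4 and YPEL5 in all 4 comparisons, and for TXNIP only in COLO-357.

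MXD4, the MAX-binding repressor, stood higher on the PD-0332991 arrays than on the vehicle arrays in both lines and at both times, with the wider gaps in COLO-357, and the AsPC-1 gap at 72 h did not pass the test. In COLO-357 at 72 h its log2 levels were 10.18, 10.16 and 10.05 with PD-0332991, against 7.50, 8.32 and 7.40 with vehicle. In COLO-357 at 24 h they were 9.68, 9.69 and 9.78 with PD-0332991, against 7.06, 7.16 and 7.78 with vehicle. The treated arrays lay within a narrow band, and the vehicle arrays spread more, with 1 array at each time standing above its group's other arrays.

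In AsPC-1 at 72 h the MXD4 levels were 10.34, 10.44 and 10.38 with PD-0332991, against 9.58, 10.16 and 9.87 with vehicle. In AsPC-1 at 24 h they were 10.65, 10.82 and 10.73 with PD-0332991, against 9.56, 9.65 and 9.56 with vehicle. Groups did not overlap in either pair, but at 72 h the highest vehicle array stood only 0.18 below the lowest treated one.

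The difference in MXD4 level, PD-0332991 minus vehicle, was 2.39 ± 0.20 (SE) in COLO-357 at 72 h, 2.38 ± 0.20 in COLO-357 at 24 h and 1.14 ± 0.20 in AsPC-1 at 24 h on the log2 scale. These are the comparisons that put MXD4 in the lists, so they carry no test. The COLO-357 differences correspond to 5.23-fold at 72 h and 5.22-fold at 24 h. The same ratios came to 3.44 and 3.94 in the authors' scaled intensities, taken as deposited. The comparison that did not choose MXD4 was AsPC-1 at 72 h, where the difference was 0.52 ± 0.20 and did not pass (limma, adjusted p = 0.14, 95% interval 0.11 to 0.93, unadjusted p = 0.015). It passed when signals were quantile-normalised without background correction (0.48, adjusted p = 0.036).

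YPEL5, the Yippee family protein, was in a single list, so it gives the most tests, and it rose in each of the 3 comparisons that did not choose it. In COLO-357 at 72 h its levels were 8.75, 8.59 and 8.80 with PD-0332991, against 7.32, 7.87 and 7.25 with vehicle. In COLO-357 at 24 h, the comparison of its list, they were 8.83, 8.59 and 8.94 with PD-0332991, against 6.92, 6.59 and 6.87 with vehicle. The treated arrays of this line were at nearly the same level at both times, while the vehicle arrays were higher at 72 h.

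In AsPC-1 at 72 h the YPEL5 levels were 7.98, 8.65 and 8.58 with PD-0332991, against 7.51, 7.89 and 7.83 with vehicle. In AsPC-1 at 24 h they were 7.94, 8.12 and 8.24 with PD-0332991, against 6.84, 6.70 and 6.90 with vehicle. The groups did not overlap, though at 72 h the lowest treated array was close to the highest vehicle array.

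The YPEL5 difference was 1.23 ± 0.18 (SE) in COLO-357 at 72 h (2.34-fold, limma, adjusted p = 0.0001), 0.66 ± 0.18 in AsPC-1 at 72 h (1.58-fold, adjusted p = 0.03) and 1.29 ± 0.18 in AsPC-1 at 24 h (2.44-fold, adjusted p = 2.9e-05). Over all 24750 probes, 5.74%, 3.26% and 5.93% passed as higher in those comparisons. Of all 24750 probes, YPEL5 had the 61st highest difference in AsPC-1 at 24 h and the 148th in COLO-357 at 72 h. In the comparison of its list, COLO-357 at 24 h, the difference was 2.0 ± 0.18 and is a description. The AsPC-1 result at 72 h was lost when vehicle replicate 1 (0.54, adjusted p = 0.14), vehicle replicate 3 (0.70, adjusted p = 0.055), treated replicate 2 (0.54, adjusted p = 0.13) or treated replicate 3 (0.57, adjusted p = 0.14) was left out, and when only the 2 groups were fitted (adjusted p = 0.13). In the authors' scaled intensities the YPEL5 ratio was 1.69 in COLO-357 at 72 h and 1.75 in AsPC-1 at 24 h, and both passed there (adjusted p = 0.0003 each).

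TXNIP, the thioredoxin-binding arrestin, was higher with PD-0332991 in COLO-357, the line of its 2 lists, and no difference was detected in AsPC-1. In COLO-357 at 72 h its levels were 11.65, 11.47 and 11.62 with PD-0332991, against 9.48, 9.40 and 9.36 with vehicle. In COLO-357 at 24 h they were 10.71, 9.72 and 10.77 with PD-0332991, against 9.46, 8.82 and 9.21 with vehicle. Replicate 2 was the lowest array of both 24 h groups, and the groups did not overlap at either time.

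In AsPC-1 at 72 h the TXNIP levels were 12.58, 12.64 and 12.42 with PD-0332991, against 12.45, 12.52 and 12.43 with vehicle. In AsPC-1 at 24 h they were 12.45, 12.42 and 12.43 with PD-0332991, against 12.68, 12.24 and 11.95 with vehicle. The groups overlapped at both times, and the vehicle arrays at 24 h spread on both sides of the treated ones.

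The TXNIP difference was 2.17 ± 0.21 (SE) in COLO-357 at 72 h and 1.24 ± 0.21 in COLO-357 at 24 h, both descriptions. In AsPC-1 it was 0.08 ± 0.21 at 72 h (limma, adjusted p = 0.92, 95% interval -0.36 to 0.52) and 0.14 ± 0.21 at 24 h (adjusted p = 0.76, 95% interval -0.30 to 0.58). Both intervals end below 1, the log2 value of a doubling, and smaller changes could not be told from 0 with these arrays. The AsPC-1 value at 24 h was 0.34 without vehicle replicate 1 (adjusted p = 0.39) and -0.03 without vehicle replicate 3 (adjusted p = 0.97). Vehicle replicate 1 had the lowest array weight of the 24 arrays (0.214), and its group had the highest median SD over all tested probes (0.248, against 0.150 to 0.172 in the other groups).

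**Figure D2:**
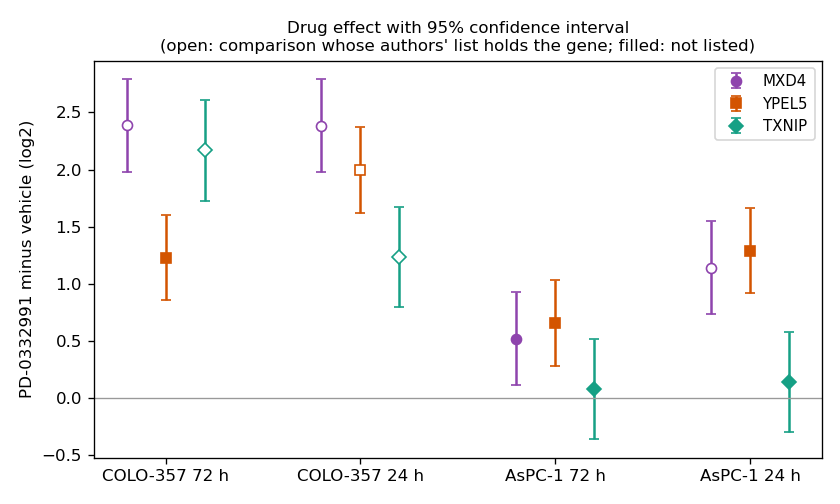
Difference in level, PD-0332991 minus vehicle (log2), for MXD4, YPEL5 and TXNIP in each line at each time. Bars are 95% confidence intervals from the fit of all 24 arrays, and open symbols mark comparisons whose list holds the gene. The TXNIP intervals in AsPC-1 include 0, and the other 10 intervals lie above 0.

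Across the 6 comparisons of a member that had not chosen it, 3 passed, all of them YPEL5. Groups did not overlap, with the treated arrays higher, in 4 of those 6, the fourth being MXD4 in AsPC-1 at 72 h. The share of all tested probes whose arrays separated in that direction was 13.6% in COLO-357 at 72 h, 13.3% in AsPC-1 at 72 h and 12.9% in AsPC-1 at 24 h, and in COLO-357 at 24 h, where all 3 members were listed, it was 15.9%. The median difference of all tested probes was within 0.02 of 0 in each drug comparison. Under the alternative settings 179 of the 180 drug differences of the 3 genes were above 0, the exception being TXNIP in AsPC-1 at 24 h without vehicle replicate 3.

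Whether the drug difference itself changed with time or line could be tested only where no list had chosen the gene. In AsPC-1 the YPEL5 difference was 0.66 at 72 h and 1.29 at 24 h, and the change of -0.63 did not pass (limma, adjusted p = 0.21). The TXNIP difference in AsPC-1 changed by -0.06 (adjusted p = 0.96). At 72 h the YPEL5 difference was 1.23 in COLO-357 and 0.66 in AsPC-1, and the gap of 0.57 did not pass (adjusted p = 0.26). The gap was 0.24 in the authors' scaled intensities.

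The other interactions contain a comparison that chose the gene and are descriptions. In COLO-357 the drug difference of MXD4 was the same at 72 h and 24 h within 0.01, that of TXNIP was 0.93 larger at 72 h, and that of YPEL5 changed by -0.77. Between lines, the MXD4 difference was larger in COLO-357 than in AsPC-1 by 1.87 at 72 h and 1.24 at 24 h. For TXNIP the gap was 2.09 at 72 h and 1.09 at 24 h. In the authors' scaled intensities these gaps were 1.25 and 0.76 for MXD4 and 1.51 and 0.62 for TXNIP.

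**Figure D3:**
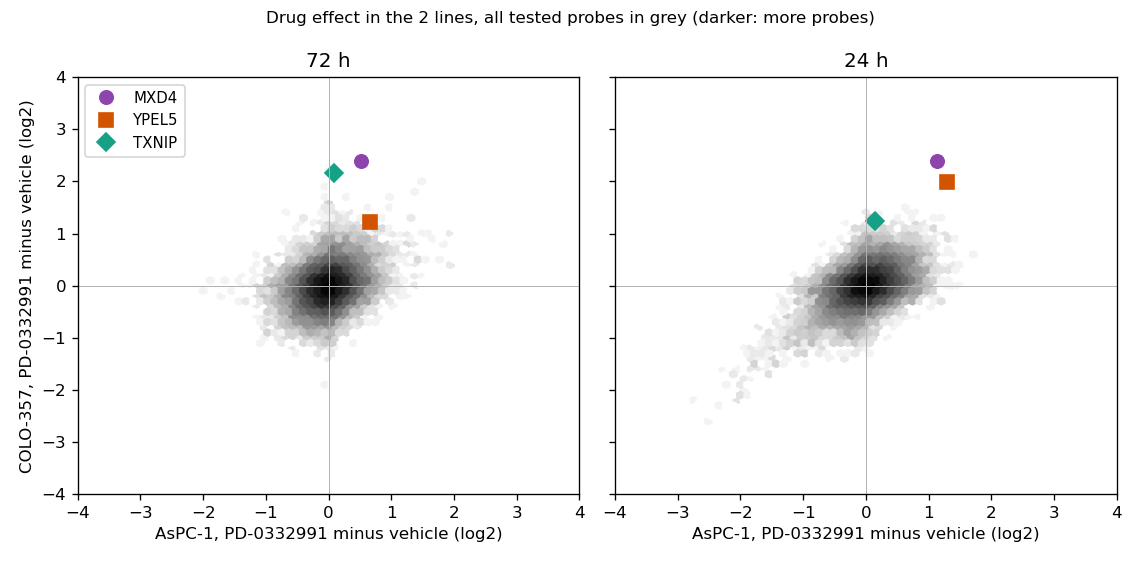
Difference in level, PD-0332991 minus vehicle (log2), in COLO-357 (vertical axis) against AsPC-1 (horizontal axis) at 72 h and 24 h, with all 24750 tested probes in grey and the 3 genes in colour. TXNIP lies close to the vertical axis at both times, with 2.17 in COLO-357 and 0.08 in AsPC-1 at 72 h, while MXD4 and YPEL5 lie to the right of it.

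The time comparisons show where the levels moved between 24 h and 72 h within 1 treatment. With PD-0332991 in COLO-357, TXNIP rose between the times, averaging 11.58 ± 0.0974 at 72 h and 10.40 ± 0.588 at 24 h (SD, n = 3 arrays each). That is a difference of 1.18 ± 0.21 (SE), where 11.3% of all probes passed as higher, and it was 0.84 without treated replicate 2 at 24 h. The treated arrays compared are those of the 2 lists that hold TXNIP, so this difference is given as a description with no test. In vehicle cultures of COLO-357, the controls of those lists, the TXNIP difference between the times was 0.25, also a description. In AsPC-1 it was 0.11 with PD-0332991 (limma, adjusted p = 0.89) and 0.17 with vehicle (adjusted p = 0.75).

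YPEL5 rose between the times in vehicle cultures of AsPC-1. There it averaged 7.75 ± 0.206 at 72 h and 6.81 ± 0.102 at 24 h, a difference of 0.93 (limma, adjusted p = 0.007), with 1.35% of all probes passing as higher. In COLO-357 it averaged 7.48 ± 0.341 at 72 h and 6.79 ± 0.176 at 24 h, a difference of 0.69, where 9.78% of all probes passed as higher. The 24 h arrays of that comparison are the controls of the list that chose YPEL5, and a low control level favours a high ratio, so the COLO-357 difference is given as a description with no test. With PD-0332991 no difference between the times was detected in AsPC-1 (0.30, limma, adjusted p = 0.43). In COLO-357 the difference with PD-0332991 was -0.08. Its 24 h arrays are the treated arrays of the list that chose YPEL5, so this value is also a description. The AsPC-1 vehicle result did not pass without vehicle replicate 2 at 72 h (0.86, adjusted p = 0.056) or with only the 2 groups fitted (adjusted p = 0.13). The COLO-357 vehicle difference was 0.59 without vehicle replicate 2 at 24 h and 0.50 without vehicle replicate 2 at 72 h.

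The 4 differences of MXD4 between the times carry no test. Each uses arrays of a list that holds MXD4, so they are given as descriptions. Of all 24750 probes, 5277 passed in either direction with PD-0332991 and 4358 with vehicle in COLO-357. In AsPC-1 1198 (4.84%) passed with PD-0332991 and 535 with vehicle. The MXD4 difference between 72 h and 24 h with PD-0332991 was 0.41 in COLO-357 and -0.35 in AsPC-1. In neither pair did the arrays overlap, which held for 19.6% of all probes in the COLO-357 direction and 12.1% in the AsPC-1 direction. With vehicle the MXD4 difference was 0.41 in COLO-357 and 0.28 in AsPC-1. The COLO-357 value with PD-0332991 was 0.09 in the authors' scaled intensities. Apart from AsPC-1 at 72 h, the arrays compared belong to lists that hold MXD4. The COLO-357 value with vehicle was 0.63 without vehicle replicate 3 at 24 h.

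Without drug MXD4 and TXNIP were lower in COLO-357 than in AsPC-1, given as a description, and no difference was detected in YPEL5 at 72 h. MXD4 averaged 7.74 ± 0.501 in COLO-357 and 9.87 ± 0.292 in AsPC-1 in vehicle cultures at 72 h. That is a difference of -2.13, and MXD4 differed by -2.26 at 24 h. TXNIP averaged 9.41 ± 0.0618 in COLO-357 and 12.46 ± 0.0484 in AsPC-1 at 72 h, a difference of -3.05, and it differed by -3.13 at 24 h. Of all tested probes 26.7% passed as lower in COLO-357 at 72 h and 24.4% at 24 h. YPEL5 differed by -0.26 at 72 h (limma, adjusted p = 0.22). At 24 h it differed by -0.02, given as a description.

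The vehicle arrays of COLO-357 in these line comparisons are also the controls of the COLO-357 lists that chose MXD4 and TXNIP. A low control level favours a high ratio, so the line differences of those genes carry no test. The 24 h arrays are also the controls of the list that chose YPEL5, so its line difference at 24 h carries none either. At 24 h the differences were -1.27 for MXD4 and -2.23 for TXNIP in the authors' scaled intensities, and -1.78 for MXD4 and -2.95 for TXNIP with quantile normalisation and no background correction. For YPEL5 at 72 h the sign turned in the authors' scaled intensities (0.19, limma, adjusted p = 0.25). The fitted YPEL5 value passed without COLO-357 vehicle replicate 2 (-0.46, adjusted p = 0.04). COLO-357 arrays at 24 h were also brighter, with median deposited signals of 109.9 to 133, against 85.5 to 106.3 on the other arrays, and the part of this brightness in the line comparison at 24 h was not tested.

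The order of the 8 group means shows how far treatment and line overlap for each gene. For MXD4 the order was AsPC-1 treated at 24 h (10.73 ± 0.0846), AsPC-1 treated at 72 h (10.39 ± 0.0539), COLO-357 treated at 72 h (10.13 ± 0.0719), AsPC-1 vehicle at 72 h (9.87 ± 0.292), COLO-357 treated at 24 h (9.72 ± 0.0546), AsPC-1 vehicle at 24 h (9.59 ± 0.0542), COLO-357 vehicle at 72 h (7.74 ± 0.501) and COLO-357 vehicle at 24 h (7.33 ± 0.39). The arrays of AsPC-1 vehicle at 72 h overlapped both their neighbours, the COLO-357 vehicle groups overlapped each other, and the other neighbours did not overlap. Treated COLO-357 cultures thus lay within the range of the AsPC-1 groups, and vehicle COLO-357 cultures lay below it.

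For YPEL5 the 4 treated groups came first, with COLO-357 at 24 h (8.79 ± 0.18) and 72 h (8.71 ± 0.107) above AsPC-1 at 72 h (8.40 ± 0.37) and 24 h (8.10 ± 0.152). The vehicle groups followed, with AsPC-1 at 72 h (7.75 ± 0.206), COLO-357 at 72 h (7.48 ± 0.341), AsPC-1 at 24 h (6.81 ± 0.102) and COLO-357 at 24 h (6.79 ± 0.176). The arrays of neighbours in this order overlapped, except between AsPC-1 treated at 24 h and AsPC-1 vehicle at 72 h and between COLO-357 vehicle at 72 h and AsPC-1 vehicle at 24 h.

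For TXNIP the 4 AsPC-1 groups came first, from 12.54 ± 0.114 (treated, 72 h) to 12.29 ± 0.368 (vehicle, 24 h), and neighbours among them overlapped. COLO-357 treated at 72 h (11.58 ± 0.0974) and COLO-357 treated at 24 h (10.40 ± 0.588) each stood clear of both neighbours, and the COLO-357 vehicle groups at 72 h (9.41 ± 0.0618) and 24 h (9.16 ± 0.323) overlapped. The highest treated COLO-357 array (11.65) was below the lowest AsPC-1 array (11.95).

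In COLO-357 the treated and vehicle arrays of the same replicate number had deviations that correlated positively over all tested probes, most of all for replicate 2. Arrays of replicates 1 and 3 correlated with each other to a similar degree as with their own number, so only replicate 2 stood apart. The drug difference is also given by replicate number as a description, and the fit of all 24 arrays does not use these pairs. The 3 pairs gave MXD4 differences of 2.67, 1.85 and 2.64 at 72 h and 2.63, 2.52 and 2.0 at 24 h. YPEL5 gave 1.43, 0.72 and 1.54 at 72 h and 1.92, 2.0 and 2.07 at 24 h. TXNIP gave 2.17, 2.07 and 2.26 at 72 h and 1.24, 0.90 and 1.56 at 24 h. All 3 genes were higher in all 3 pairs at both times, and at 72 h the pair of replicate 2 had the smallest difference for each. At 72 h vehicle replicate 2 was the highest array of its group for MXD4 and YPEL5, and arrays of replicate 2 had the lowest weights of this line (0.562 treated and 0.657 vehicle at 72 h).

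The members were also set against each other over the 24 arrays, with levels centred within each line, as a description. Pearson's r was 0.89 between MXD4 and YPEL5, 0.84 between MXD4 and TXNIP and 0.72 between YPEL5 and TXNIP, and all these points share the 8 groups. Within COLO-357 (12 arrays) the 3 values were 0.96, 0.89 and 0.85, and within AsPC-1 (12 arrays) they were 0.81, 0.31 and 0.43. With each group's mean removed, r over the 24 arrays was 0.59 for MXD4 and YPEL5, 0.03 for MXD4 and TXNIP and 0.31 for YPEL5 and TXNIP.

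Among the 684 other named probes, those most like MXD4 over the 24 arrays were both probes of SLC16A4, a member of the monocarboxylate transporter family (r = 0.93 and 0.90), and then YPEL5 (0.89). Most like YPEL5 were CYBRD1, an iron-reducing membrane protein (0.90), ARSD, a sulfatase family member (0.90), and RPS29, a ribosomal protein (0.90). Most like TXNIP were TSC22D3, the glucocorticoid-induced leucine zipper (0.88), TRNP1 (0.87) and COL17A1, a hemidesmosomal collagen (0.86). By rank, SLC16A4 stayed first for MXD4 (Spearman's rho 0.93) and TSC22D3 for TXNIP (0.85), while CYP4V2 came first for YPEL5 (0.89). Only probes in the authors' lists have names here, so this ranking is over genes selected for a response in these or the knockdown arrays.

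The neighbours of the 3 genes in their pathways could be followed only where the lists name them. Of 14 genes of the MYC/MAX/MXD/MLX network, 1 was named (MXD4), as were 1 of 5 Yippee genes (YPEL5), 1 of 6 alpha arrestins (TXNIP), 1 of 11 glucose uptake and MondoA target genes (TXNIP) and 0 of 12 genes of the CTLH ligase. Of 14 genes of the thioredoxin system, 1 was named, PRDX5, a peroxiredoxin that reduces peroxides. In the 3 comparisons that had not listed it, PRDX5 differed by 0.58 in COLO-357 at 72 h (limma, adjusted p = 0.0016), 0.41 in COLO-357 at 24 h (adjusted p = 0.021, where 5.52% of all probes passed as higher) and 0.26 in AsPC-1 at 72 h (adjusted p = 0.21).

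Of 39 growth arrest genes and CDK inhibitors, 5 were named, the 3 members and DDIT4 and ERBB3. DDIT4, an inhibitor of mTORC1, passed in 0 of the 3 comparisons that had not listed it, with 0.36 in COLO-357 at 72 h (limma, adjusted p = 0.29), 0.57 in COLO-357 at 24 h (adjusted p = 0.064) and 0.50 in AsPC-1 at 24 h (adjusted p = 0.11). ERBB3, a receptor of the EGFR family, rose by 0.81 in COLO-357 at 24 h (adjusted p = 0.022). It had -0.19 in COLO-357 at 72 h (adjusted p = 0.7) and 0.08 in AsPC-1 at 24 h (adjusted p = 0.88). Both genes were listed in AsPC-1 at 72 h, where DDIT4 had 1.04 and ERBB3 had -1.14, as descriptions with no test. Of 25 genes that MYC induces, 2 were named. NOP56, a nucleolar protein of ribosomal RNA processing, passed in 0 of the 3 comparisons that had not listed it. In COLO-357 at 72 h, the comparison of its list, it had -0.74, a description. MTHFD2, a mitochondrial folate enzyme, rose in AsPC-1 at 24 h by 1 of its 2 probes (0.57, adjusted p = 0.017, against 0.39, adjusted p = 0.096, for the other). In AsPC-1 at 72 h, the comparison of its list, these probes had 1.34 and 1.35 in the same order, as descriptions.

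The levels of proliferation genes stand beside those of the members. Of 9 genes fixed as proliferation markers 8 were named, on 9 probes, and the authors' lists chose them too. The median difference over those probes, PD-0332991 minus vehicle, was -0.70 in COLO-357 at 72 h, -2.20 in COLO-357 at 24 h, -0.48 in AsPC-1 at 72 h and -2.57 in AsPC-1 at 24 h. Their mean level was 10.08 ± 0.429 in treated and 10.59 ± 0.0838 in vehicle COLO-357 cultures at 72 h, and 8.20 ± 0.217 in treated and 10.66 ± 0.122 in vehicle COLO-357 cultures at 24 h. In AsPC-1 it was 9.69 ± 0.095 in treated and 10.20 ± 0.0762 in vehicle cultures at 72 h, and 7.53 ± 0.189 in treated and 10.11 ± 0.221 in vehicle cultures at 24 h.

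MXD4 and TXNIP did not follow that order in time in COLO-357. There the median proliferation difference was nearer to 0 at 72 h than at 24 h, while the MXD4 difference was 2.39 at 72 h and 2.38 at 24 h and the TXNIP difference 2.17 at 72 h and 1.24 at 24 h. The YPEL5 difference was 1.23 at 72 h and 2.0 at 24 h in COLO-357, and 0.66 at 72 h and 1.29 at 24 h in AsPC-1, where the MXD4 difference was 0.52 at 72 h and 1.14 at 24 h. Like the proliferation difference, these were nearer to 0 at 72 h than at 24 h, and the YPEL5 change in AsPC-1 did not pass (limma, adjusted p = 0.21). For YPEL5 in AsPC-1 the likeness is in the differences only. In AsPC-1 the treated proliferation mean was 7.53 at 24 h and 9.69 at 72 h. There YPEL5 had 6.81 at 24 h and 7.75 at 72 h with vehicle, and 8.10 and 8.40 with PD-0332991. MXD4 in AsPC-1 had 9.59 at 24 h and 9.87 at 72 h with vehicle. With PD-0332991 it had 10.73 at 24 h and 10.39 at 72 h, so its treated level was lower at 72 h, as a description. In AsPC-1, TXNIP differed by 0.14 at 24 h, where the proliferation genes had their lowest median. With each group's mean removed, r with the mean of the proliferation probes over 24 arrays was 0.06 for MXD4, 0.12 for YPEL5 and 0.15 for TXNIP. The part of cell number and of the cell cycle in the 3 genes' levels was not tested. No gene of the marker lists for ductal epithelium, acinar, stellate, immune or endothelial cells was named (0 of 10, 5, 6, 4 and 3 genes), so the labelled cell type could not be checked.

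**Figure D4:**
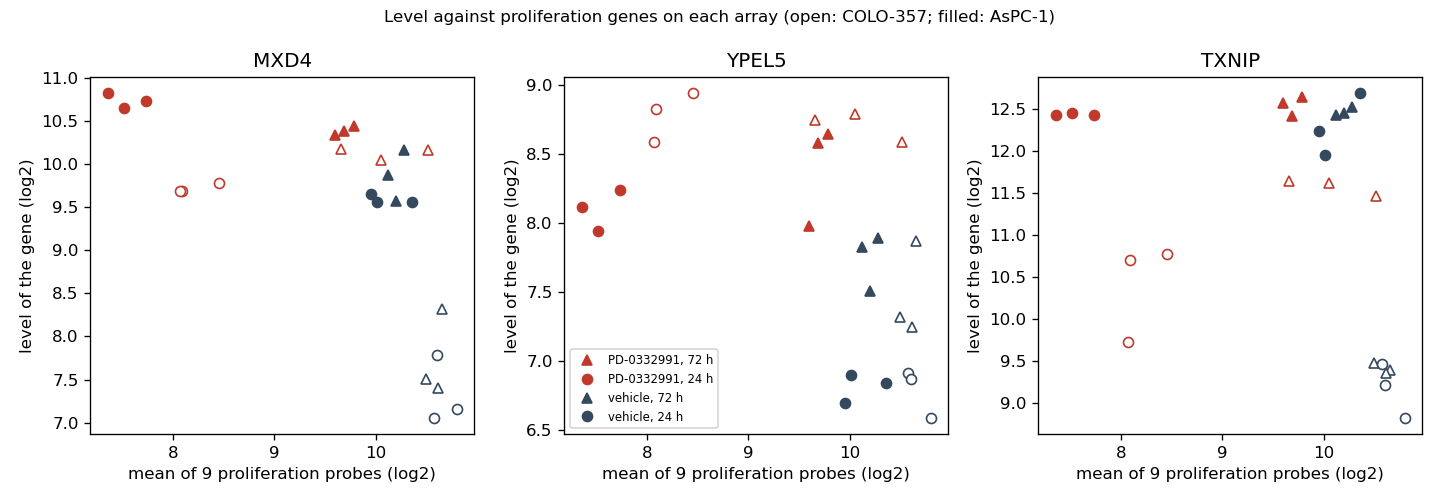
Level (log2) of MXD4, YPEL5 and TXNIP on each array against the mean level (log2) of 9 proliferation probes on the same array. Open symbols are COLO-357 and filled ones AsPC-1, triangles 72 h and circles 24 h, red PD-0332991 and blue vehicle. Treated COLO-357 arrays have a proliferation mean of 10.08 at 72 h and 8.20 at 24 h, while TXNIP averages 11.58 at 72 h and 10.40 at 24 h.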

How the data were processed

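The authors deposited 1 linear bead-summary intensity and 1 detection p-value per probe and array for 24 arrays, per the file headers. The software and any background step behind the intensity are not given in the sources used here. Their value table was checked to hold the same intensity times 1 factor per array (0.714 to 1.08). The authors also deposited 6 lists, with a ratio per gene, per the file headers, and the files pair probes with names only there (605 symbols).

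Signals were background-corrected with the detection p-values and quantile-normalised (neqc, log2 offset 16) in limma 3.58.1 (R 4.3.3). A probe was tested where its detection p was under 0.05 on at least 3 arrays. One fit of all 24 arrays gave a mean for each group (lmFit, eBayes, 16 residual and 5.84 prior degrees of freedom), two-sided, with Benjamini-Hochberg adjustment over 24750 probes at 0.05. The fit was tested on simulated data. The number of arrays limits the precision.

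The members and lists were chosen with earlier results of these data known. A comparison whose list holds a gene, and any interaction that contains it, is given with no p. The same holds for differences between the times or the lines that use arrays of a list that holds the gene. Named are the members, the 3 named probes most alike to each in Pearson's r (with the first by Spearman's rho as the alternative), and the listed genes of the pathway lists.

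The replicate numbers were checked for pairing by correlating the deviations from group means of same-numbered treated and vehicle arrays. These were 0.15, 0.376 and 0.144 in COLO-357 at 72 h and 0.215, 0.468 and 0.117 at 24 h. All were above 0.1, and the COLO-357 drug differences are therefore also given by number, as a description. Only replicate 2 stood apart, since arrays of different numbers had -0.269 to 0.184 at 72 h and -0.329 to 0.178 at 24 h, and no label says what the number marks. In AsPC-1 same-numbered arrays had 0.0253 to 0.12 at 72 h and 0.0101 to 0.0713 at 24 h. Arrays of different numbers had -0.101 to 0.0204 at 72 h and -0.0567 to 0.033 at 24 h. Same-numbered arrays thus stood above the others at 72 h and overlapped them at 24 h. These values were small, and whether the numbers pair the AsPC-1 arrays was not settled. Plots used matplotlib 3.10.9 and Python 3.11.15. The arrays behind the 2 knockdown lists were not analysed here.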

Additional observations from a re-analysis of the deposited data

How the results depend on the processing

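Each gene had 14 differences. No difference that passed in the fit, or that came from a list's own comparison, changed sign under an alternative. Signs turned only for 5 differences that did not pass in the fit and for the MXD4 interaction with time in COLO-357, near 0. Of the 42 differences 27 have a p in the fit, and all 27 kept their side of the threshold with array weights, with all probes tested and with a detection p under 0.01. The replicate block was fitted for 24, and the 9 of them with a p kept their side. The 27 include MXD4 between the times, and MXD4 and TXNIP between the lines. They also include YPEL5 and TXNIP between the times in COLO-357, and YPEL5 between the lines at 24 h. All of these are descriptions above, so their side of the threshold is not counted as support. The other 15 are or contain a list's own comparison and have no p, and in these settings each moved by less than the SD between arrays. All 6 drug differences in COLO-357 (log2, PD-0332991 minus vehicle) were smaller with the authors' scaled values.

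With the authors' scaled values the difference was 1.22 for MXD4 in AsPC-1 at 24 h, 1.78 and 1.98 for MXD4 in COLO-357 at 72 h and 24 h, 1.55 for YPEL5 in COLO-357 at 24 h and 1.68 for TXNIP in COLO-357 at 72 h. The gap between lines was 1.25 and 0.76 for MXD4 and 1.51 and 0.62 for TXNIP at 72 h and 24 h. With 75th percentile scaling the values in the same order, without AsPC-1, were 1.83 and 1.95, 1.52 and 1.76, and the gaps 1.32 and 0.76 for MXD4 and 1.60 and 0.64 for TXNIP. With an offset of 50 YPEL5 had 1.72 in COLO-357 at 24 h. With quantile normalisation and no background correction MXD4 had 1.06 in AsPC-1 at 24 h, 0.48 in AsPC-1 at 72 h (adjusted p = 0.036), and 1.99 and 1.89 in COLO-357 at 72 h and 24 h. YPEL5 had 1.41 and TXNIP 2.03 in COLO-357 at 24 h and 72 h, the YPEL5 change between the times in COLO-357 was -0.49, and the gaps were 1.51 and 0.83 for MXD4 and 1.96 at 72 h for TXNIP.

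With only the compared groups fitted, YPEL5 had 0.66 in AsPC-1 at 72 h and 0.93 between the times in AsPC-1 vehicle cultures (limma, adjusted p = 0.13 each). MXD4 had 0.41 between the times in treated COLO-357, a description. Leaving out 1 array gave 0.54 to 0.87 for YPEL5 in AsPC-1 at 72 h, 0.86 to 1.05 and 0.50 to 0.81 for YPEL5 between the times in AsPC-1 and COLO-357 vehicle cultures, 0.12 to 0.63 for MXD4 between the times in COLO-357 vehicle cultures, -0.46 to -0.15 for YPEL5 between lines at 72 h, and 1.10 to 1.47 for the MXD4 gap at 24 h. The causes were not tested.

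Counts of probes called ran from 1705 to 5873 in COLO-357 at 72 h, 1840 to 4413 in COLO-357 at 24 h, 831 to 2144 in AsPC-1 at 72 h and 674 to 3383 in AsPC-1 at 24 h over the alternatives (2791, 2796, 1499 and 2900 as reported). Between the times they ran from 3 to 861 in AsPC-1 vehicle cultures (535 as reported), 714 to 1498 in treated AsPC-1 (1198) and 2799 to 6566 in COLO-357 vehicle cultures (4358). Drug calls were higher in 50.9%, 48.9%, 53.9% and 50.6% of cases, against 12.5%, 35.8%, 61.5% and 71.2% with the authors' scaled values, in the order of the drug counts.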
